A study of Mus musculus with 12 samples.

Results

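The proteasome genes of mouse leg muscle were followed here through 2 muscles and through spaceflight. They were the genes of the deposited expression table whose symbol begins with Psma, Psmb, Psmc, Psmd, Psme, Psmf or Psmg and a number, with 4 pseudogene entries (symbols containing -ps) left out. This rule took 50 of the 36008 genes in the table. It took 1 gene that is no proteasome part, Psmc3ip, a meiotic recombination factor named for binding Psmc3, which was kept apart. Gastrocnemius (calf) and quadriceps (thigh) came from the same 6 female mice, which were 30 weeks old at the start. The ground mice M02, M03 and M08 stayed at the launch site in the same kind of housing for 9 weeks, and the flight mice M11, M12 and M20 spent those weeks on the International Space Station. All 6 had injections of saline (PBS) every other week, as the control arm of a bone-loss treatment study, and the muscle was taken from the thawed left hind limb of a frozen carcass. The sample labels name the strain C57BL/6, whereas the methods of the study name BALB/c. Each muscle of each mouse gave 1 stranded mRNA library, so the 12 libraries fell into 4 groups of 3, and all values below as mean ± SD have n = 3.

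The proteasome is the barrel-shaped protease that degrades proteins tagged with ubiquitin. Its core is a stack of rings: outer rings of 7 alpha subunits (Psma genes), which gate the entry pore, and inner rings of 7 beta subunits (Psmb genes), of which 3 cut peptide bonds. A cap sits on the core, with a ring of 6 ATPases (Psmc genes) that unfold the substrate and a base and lid of other subunits (Psmd genes) that bind ubiquitin and remove it. In immune cells, and in other cells under interferon, the 3 catalytic beta subunits are exchanged for Psmb8, Psmb9 and Psmb10, which gives the immunoproteasome. Activators (Psme genes) can dock in place of the cap, Psmf1 is known as an inhibitor of the isolated core, and assembly factors (Psmg1 to Psmg4 for the core, Psmd5, Psmd9 and Psmd10 for the base) guide the building of the particle and then leave it. In muscle the proteasome is known as the main route by which contractile proteins are lost during atrophy.

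Levels were read as TPM, the share of a library's transcripts that come from a gene, scaled by transcript length, so genes can be compared within a library. A TPM value does not keep the number of reads behind it, and precision was judged from the spread between mice. The study gives the read depth of its libraries. That depth was lowest in a ground quadriceps library, whose mouse the text of the study does not name. The listed values of a library summed to 923295 to 966638. One library stood apart in the number of genes above 0, the quadriceps of ground mouse M08, with 18172 against 20291 to 21265 in the other 11. It was not apart in genes above 5 TPM. Of the 50 genes, 44 passed the filter of the tests, which asked for a level over 5 TPM in any of the 12 libraries, as did 10481 genes of the table. The genes below it were Psma8, Psmb9, Psmb11, Psmd10, Psme2b and Psmc3ip.

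The constitutive subunits with the Psm prefix were abundant in both muscles, and their levels spanned a few-fold range. The 31 genes of the constitutive core, the ATPase ring and the non-ATPase base and lid had mean levels over the 12 libraries from 40.3 TPM (Psmb5) to 166 TPM (Psmc3). Within the alpha ring the highest gene was 2.44 to 2.67 times the lowest in every group. Within the constitutive beta ring that ratio was 3.57 to 4.13, within the ATPases 3.08 to 3.86 and within the non-ATPase base and lid 3.46 to 3.76. Psmb5 was the lowest of the beta ring, and Psmc3 the highest of the ATPases, in each of the 4 groups. Psmb4, a beta subunit without catalytic activity, was the highest of the beta ring in 3 groups, while in flight gastrocnemius Psmb6 was higher, at 115 ± 6.24 against 97.9 ± 21.2 TPM, a difference smaller than the spread of Psmb4.

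The assembly factors and the inhibitor were much rarer, while an activator was as abundant as the subunits. Among the assembly factors, mean levels over all libraries ran from 2.08 TPM (Psmd10) to 12.7 TPM (Psmg2), and Psmg3 passed the filter only through 3 quadriceps libraries. The inhibitor gene Psmf1 had 9.67 TPM. Among the activators, Psme4, whose product caps the core for ATP-independent degradation, was the most abundant at 106 TPM. Psme2b, a near copy of Psme2 with 78.4% of its 31-base words found in other genes, chiefly Psme2, had 2.77 TPM. Its reads can be told apart from those of Psme2 only in part. Psma8, the alpha subunit of the testis, ranged from 0 to 0.298 TPM, and Psmb11, the beta subunit of the thymus, from 0.530 to 0.926 TPM.

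**Figure D1:**
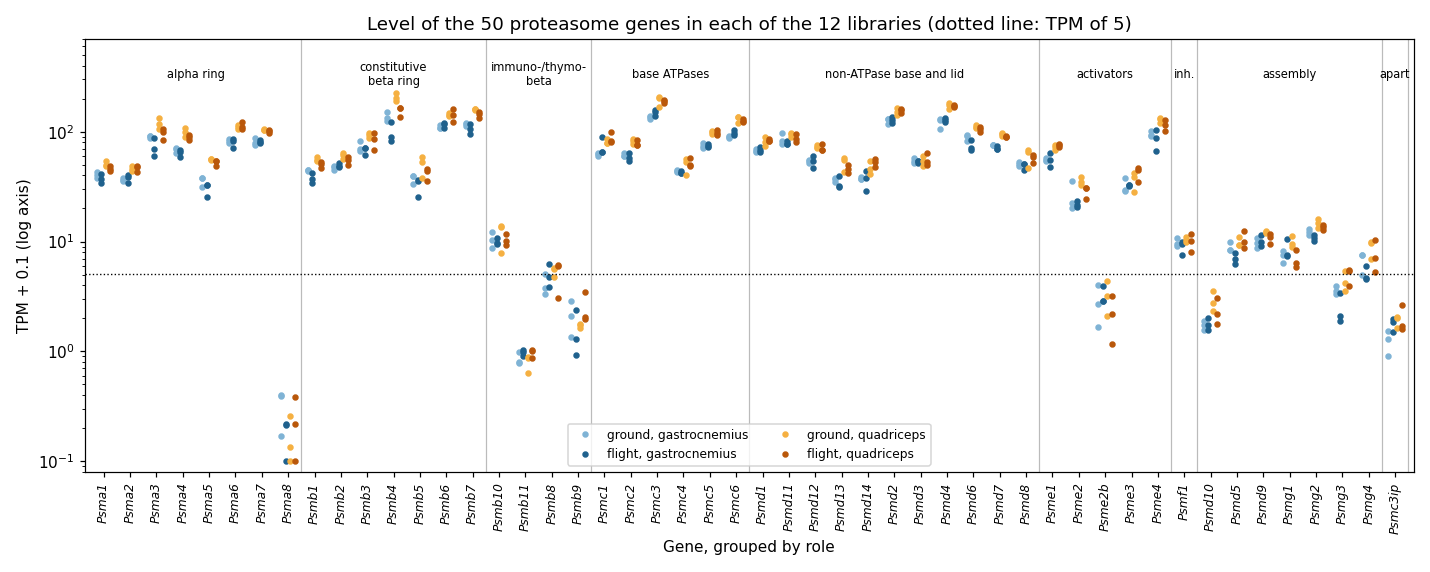
TPM plus 0.1 on a log axis for each of the 50 proteasome genes, 1 point per library, coloured by group and ordered by role, with a dotted line at 5 TPM. The constitutive subunits lie between about 25.2 TPM (the lowest library of Psmb5) and 224.8 TPM (the highest of Psmb4), and the immunoproteasome subunits and assembly factors lie well below them.

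The catalytic subunits are the site of the exchange between the constitutive and the immune form. Psmb5 (chymotrypsin-like activity) had 33.4, 39.6 and 39.0 TPM in the gastrocnemius of ground mice M02, M03 and M08, and 35.5, 36.2 and 25.2 TPM in that of flight mice M11, M12 and M20. In the quadriceps it had 59.1, 52.5 and 38.1 TPM on the ground and 45.6, 35.5 and 43.96 TPM after flight. The flight and ground ranges of Psmb5 overlapped in both muscles, and so did those of the muscles. Reads of Psmb5 are open to doubt, since 71.7% of its 31-base words recur in other genes, most of them in Gm3375, which was listed at 10.7 to 18.4 TPM.

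Psmb6 (caspase-like activity) had 109, 114 and 109 TPM in ground and 120.4, 118 and 108 TPM in flight gastrocnemius. Its quadriceps values were 146, 139 and 140.5 TPM on the ground and 141, 122 and 159 TPM after flight. All 6 quadriceps libraries thus lay above all 6 gastrocnemius libraries, whereas flight and ground overlapped. Psmb7 (trypsin-like activity) showed the same separation of the muscles, with 113, 120.0 and 118 TPM in ground and 118, 105 and 94.2 TPM in flight gastrocnemius. It had 162, 160 and 158 TPM in ground quadriceps and 151, 134 and 145 TPM in flight quadriceps, so in that muscle all 3 flight values were below all 3 ground values.

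The immunoproteasome subunits were rare and scattered. Psmb8 had 3.69, 4.94 and 3.23 TPM in ground and 6.10, 3.73 and 4.67 TPM in flight gastrocnemius, and 5.51, 5.69 and 4.67 TPM in ground and 5.90, 2.95 and 6.06 TPM in flight quadriceps. Psmb9 had 1.25, 2.79 and 1.98 TPM in ground and 2.28, 0.818 and 1.19 TPM in flight gastrocnemius, and 1.69, 1.53 and 1.65 TPM in ground and 3.37, 1.95 and 1.88 TPM in flight quadriceps. Psmb10 had 8.71, 10.3 and 12.2 TPM in ground and 9.67, 9.30 and 10.6 TPM in flight gastrocnemius, and 13.6, 13.6 and 7.71 TPM in ground and 9.17, 9.94 and 11.7 TPM in flight quadriceps. No pair of groups compared here was separated for Psmb8 or Psmb10. For Psmb9, which was too low for the tests, the 3 flight values lay above the 3 ground values in quadriceps and overlapped with them in gastrocnemius. Together the 3 immune genes made up 5.80% ± 0.632 of the TPM of the 6 catalytic genes in ground gastrocnemius and 6.00% ± 0.833 in flight gastrocnemius. The share was 4.99% ± 0.857 in ground and 5.12% ± 0.243 in flight quadriceps, so in each muscle flight and ground differed by less than the spread between mice. The mean share was lower in quadriceps than in gastrocnemius in both conditions, by more than some of these SDs, with overlapping ranges. By mouse it was lower in quadriceps in all but M02 (5.07% in gastrocnemius, 5.36% in quadriceps), and most so in M08 (6.14% and 4.01%). Mean Psmb8 and Psmb10 were not lower in quadriceps, at 5.29 and 11.6 TPM beside 3.95 and 10.4 TPM on the ground. Mean Psmb9 was lower there on the ground, at 1.62 beside 2.01 TPM, and not after flight. The lymphocyte markers were near absent, with 6 of 7 at a mean under 1 TPM and a summed level of 2.78 to 4.79 TPM over the 12 libraries. Of 10 macrophage markers 6 passed the filter and 4 did not, and their summed level was 41.6 to 75.6 TPM.

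**Figure D2:**
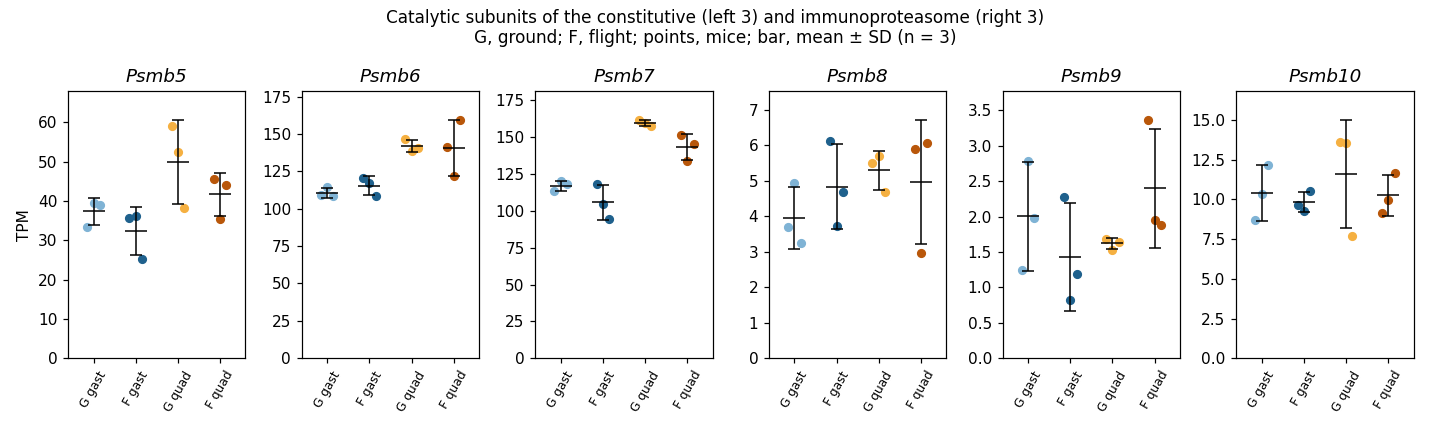
TPM of the 6 catalytic subunit genes by group, with a point per mouse and a bar for the mean ± SD of 3 mice, each panel with its own axis from 0. Psmb6 and Psmb7 part the quadriceps from the gastrocnemius, while the panels of Psmb8, Psmb9 and Psmb10 stay under 14 TPM, with overlapping groups but for Psmb9 in quadriceps, where the flight values lie above the ground values.

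Quadriceps held more proteasome mRNA than gastrocnemius. Summed over the 50 genes, the level was 2551 ± 80.5 TPM in ground gastrocnemius and 3351 ± 87.1 TPM in ground quadriceps, or 0.276% ± 0.00894 and 0.350% ± 0.0104 of the listed TPM. After flight the sums were 2449 ± 139 and 3163 ± 143 TPM, and in both conditions the ranges of the muscles did not overlap. Levels of a tissue mix the share of a cell type with its RNA per cell, and fewer cells of a type cannot be told apart here from less RNA per cell. The levels of other markers also differed between the muscles. The muscle fiber markers summed to 81300 to 84150 TPM in ground gastrocnemius and 97040 to 103500 TPM in ground quadriceps, with 5 of 9 positive and 4 negative, a median log2 difference of 0.0021, and 3 higher at an adjusted p under 0.05 (7.98% of all tested genes). The adipocyte markers summed to 182 to 262 TPM and 324 to 600.2 TPM, with 6 of 6 positive and 1 higher at an adjusted p under 0.05 (same share of all tested genes). The part of these cells in the result was not tested.

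Differences between the muscles were tested with limma on log2(TPM + 1), as quadriceps minus gastrocnemius, and adjusted p-values are by Benjamini-Hochberg over all tested genes. The main fit had no block for the mouse, although each mouse gave both muscles. In ground mice, 43 of the 44 tested proteasome genes had a positive difference, as had 67.7% of all tested genes. At an adjusted p under 0.05, 23 were higher in quadriceps and 0 lower, against a background of 8.84% of all tested genes in either direction and 7.98% higher in quadriceps. With a change of more than 1.5-fold required as well, 2 were called, Psma5 and Psmb4, where 2.21% of all tested genes were. The median difference was 0.36 for the proteasome genes and 0.12 for all tested genes, so the proteasome genes lay 0.24 above the general shift. The 3 quadriceps values were all above the 3 gastrocnemius values for 31 of the 44, beside 28.3% of all tested genes, and the reverse held for 0, beside 5.52%. Psmg3 is among the 44 although it passed the filter only through quadriceps libraries. A filter on the mean level over all libraries leaves out Psmg3 and Psmb8. With that filter 41 of 42 were positive, beside 69.4% of all genes then tested, and the median was 0.36.

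The calls of the ground mice depended on all 6 libraries. Without mouse M02, M03 or M08 in turn, the count at an adjusted p under 0.05 was 0. Of the 10481 tested genes 2, 0 and 10 passed in these fits. The lowest adjusted p of a proteasome gene was 0.119, 0.195 and 0.0651 (limma). Of the 44 differences 41, 43 and 44 stayed positive, beside 64.2%, 69.5% and 64.9% of all tested genes. With each mouse as a block, which fits the pairing of muscles by animal, 10 genes were at an adjusted p under 0.05 (background 4.13%) and the same number of 2 was called. The libraries were also rescaled by the median ratio over genes, which brings the median of all tested genes to 0.0029. Then 4 passed (background 2.37%) and 0 were called. Still positive were 42, beside 50.3% of all tested genes, and the median was 0.24. Without the filter on low genes 9 passed (background 0.847%) and 0 were called.

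Psma5, an alpha subunit, had the largest difference on the ground. It had 37.8, 38.0 and 31.5 TPM in the gastrocnemius of M02, M03 and M08 and 54.6, 56.3 and 55.8 TPM in their quadriceps. The muscles did not overlap, and quadriceps was 1.54-fold higher on the log2(TPM + 1) scale (log2 difference 0.63, SE 0.0887, adjusted p = 0.0135, limma). Of its 31-base words 61.0% recur in other genes, chiefly Gm8394, which was listed at 0 to 0.468 TPM. Psmb4 had 125, 150.3 and 134 TPM in gastrocnemius and 224.8, 204 and 189 TPM in quadriceps, again without overlap (1.51-fold, log2 difference 0.59, SE 0.0934, adjusted p = 0.0182, limma). None of its 31-base words recurs in another gene.

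The genes with the smallest p-values came from every layer of the particle. Psmb7 had the smallest, with values given above (log2 difference 0.44, SE 0.0548, adjusted p = 0.0112). Psmc6, an ATPase of the base, had 90.5, 88.4 and 89.2 TPM in gastrocnemius and 121, 136 and 136 TPM in quadriceps (log2 difference 0.54, adjusted p = 0.0112). Psmd12, a lid subunit, had 52.2, 55.6 and 54.3 TPM against 71.4, 76.3 and 72.9 TPM (log2 difference 0.44, adjusted p = 0.0144). Psma6, an alpha subunit, had 78.1, 81.7 and 85.5 TPM against 110.3, 107 and 114 TPM (log2 difference 0.43, adjusted p = 0.0158).

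By role, 6 of 7 alpha genes, 5 of 7 constitutive beta genes, 5 of 6 ATPases, 5 of 11 non-ATPase base and lid genes and 2 of 4 tested activators passed in the fit without a block, all higher in quadriceps. The 2 activators were Psme1, whose product pairs with that of Psme2, and Psme4. Of the 6 tested assembly factors 0 passed, nor did the inhibitor Psmf1 or the immune genes Psmb8 and Psmb10. The median differences were 0.39 for the alpha ring, 0.36 for the constitutive beta ring, 0.42 for the ATPases, 0.30 for the non-ATPase base and lid and 0.27 for the assembly factors. Psmd3, a lid subunit, was the exception in direction on the ground, with 53.9, 57.4 and 51.7 TPM in gastrocnemius and 59.7, 53.7 and 48.2 TPM in quadriceps (log2 difference -0.016, SE 0.0933, adjusted p = 0.925, limma), and the values of the muscles overlapped.

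In flight mice the differences between the muscles had nearly the same size, with fewer of them past the test. Again 43 of 44 were positive (66.7% of all tested genes), the median was 0.37, and all tested genes had a median of 0.11. At an adjusted p under 0.05, 3 were higher in quadriceps, Psma5, Psma4 and Psmd4 (background 2.45% in either direction, 2.02% higher), and Psma5 was called with the 1.5-fold minimum (background 1.66%). The quadriceps values lay wholly above the gastrocnemius values for 30 of the 44, beside 24.4% of all tested genes. With the filter on the mean level, which leaves out Psmg3 and Psmb8, 41 of 42 were positive, beside 69.2% of all genes then tested. With mouse as a block 1 gene, Psma5, passed (adjusted p = 0.0487, limma, background 1.94%). After rescaling 0 passed (background 0.62%), with a median of 0.25 and 39 positive, beside 49.6% of all tested genes. Without the filter on low genes 0 passed (background 0.066%). Without M11, M12 or M20 in turn 0 passed, beside 47, 5 and 4 of the 10481 tested genes. Then 43, 43 and 41 were positive, beside 68.2%, 69.1% and 61.25% of all tested genes.

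In the flight mice Psma5 had 32.8, 25.6 and 32.6 TPM in gastrocnemius and 53.8, 53.9 and 48.8 TPM in quadriceps (1.71-fold, log2 difference 0.77, SE 0.119, adjusted p = 0.0322, limma). Psma4, another alpha subunit, had 68.5, 58.2 and 65.0 TPM against 93.7, 89.2 and 84.7 TPM (log2 difference 0.48, SE 0.0927, adjusted p = 0.0484, limma). Psmd4, the ubiquitin receptor of the cap, had 124, 133 and 128 TPM against 170, 174 and 167 TPM (log2 difference 0.41, SE 0.0730, adjusted p = 0.0411, limma). None of these 3 genes overlapped between the muscles, and Psmd4 shares no 31-base word with another gene. Next in order were Psmd6, a lid subunit (log2 difference 0.49, adjusted p = 0.0537), and Psma6 (0.49, adjusted p = 0.0562). Psmg1, an assembly factor of the alpha ring, was the exception in direction, with 7.22, 10.4 and 7.38 TPM in gastrocnemius and 6.32, 5.81 and 8.23 TPM in quadriceps, ranges that overlap (log2 difference -0.26, adjusted p = 0.413, limma).

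Mouse by mouse, the direction was shared by nearly all subunits. In 28 of the 44 genes all 6 mice had more in quadriceps than in gastrocnemius, as had 26% of all tested genes. In 10 more, 5 of the 6 mice did, as in 17.4% of all tested genes, and Psmd3 alone was higher in quadriceps in only 2 mice. The number of the 44 genes higher in quadriceps was 43, 41 and 35 in ground mice M02, M03 and M08 and 39, 39 and 43 in flight mice M11, M12 and M20. Over all tested genes the share was 68.3%, 58.2% and 65.7% in these ground mice and 60.2%, 59.8% and 72.9% in these flight mice. When all 12 libraries were fitted together with mouse as a block, an alternative added after the data were seen, 34 of the 44 were at an adjusted p under 0.05 beside 30.5% of all tested genes, and 44 of 44 were positive with a median of 0.35.

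**Figure D3:**
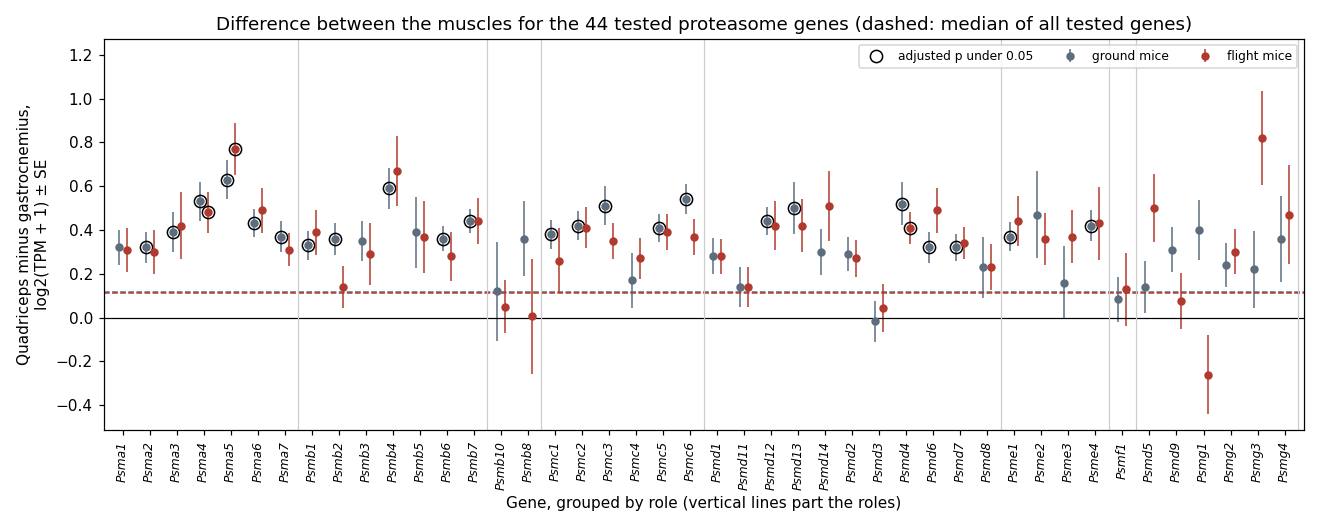
Difference between quadriceps and gastrocnemius, in log2(TPM + 1) with its SE, for the 44 tested proteasome genes in ground and in flight mice. Dashed lines mark the medians of all tested genes (0.12 and 0.11), rings mark an adjusted p under 0.05 in the fit without a block for the mouse (23 genes on the ground, 3 after flight), and Psmd3 and Psmg1 are the only points below 0.

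The promoters of the proteasome genes, whether or not they passed a test, were searched for the core of the antioxidant response element, the site at which the transcription factor Nfe2l1 is known to drive proteasome genes. RefSeq promoters (GRCm38.p6, 250 bases before to 50 after the start) were found for 42 of the 50 genes, 45 promoters in all. The core was spelled TGACNNNGC or TGAGNNNGC, which differ in a fixed base and so cannot match the same letters, and was searched on both strands. It was in 18 of the 45 promoters (40%), beside 27.8% of all promoters of that length. In the stretch from 70 bases before the start to 30 from it, a window chosen after the positions were seen, 10 of the 45 (22.2%) held a match, beside 10.8% of all promoters. Psmc3ip is among these matches, and without it the counts were 17 of 44 (38.6%) and 9 of 44 (20.5%). The windows below are shown for the called gene Psma5, for catalytic subunits and for other genes with a match, with the match in capitals, and for the called gene Psmb4, which has none in this window.
Psma5, chr3:108256856-108256955, plus strand: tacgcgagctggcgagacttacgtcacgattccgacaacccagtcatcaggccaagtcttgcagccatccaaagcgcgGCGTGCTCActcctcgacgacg
Psmb5, chr14:54617966-54618065, minus strand: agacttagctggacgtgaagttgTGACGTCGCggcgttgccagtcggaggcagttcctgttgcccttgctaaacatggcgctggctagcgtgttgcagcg
Psmb6, chr11:70525287-70525386, plus strand: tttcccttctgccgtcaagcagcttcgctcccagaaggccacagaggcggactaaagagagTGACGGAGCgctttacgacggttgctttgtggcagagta
Psmd12, chr11:107479458-107479557, plus strand: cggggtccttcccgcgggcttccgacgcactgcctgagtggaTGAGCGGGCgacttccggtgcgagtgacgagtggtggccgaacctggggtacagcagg
Psme4, chr11:30771705-30771804, plus strand: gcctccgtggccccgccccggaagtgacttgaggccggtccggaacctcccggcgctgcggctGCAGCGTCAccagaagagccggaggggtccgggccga
Psmb4, chr3:94886929-94887028, minus strand: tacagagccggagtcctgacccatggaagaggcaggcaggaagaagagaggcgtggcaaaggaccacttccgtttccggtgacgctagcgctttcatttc

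The match began 9 bases before the start in Psmb6, 7 before it in Psme4, 28 before it in Psmd12, 47 before it in Psmb5 and 8 after it in Psma5. Of the 37 tested genes with a promoter, 16 held the core anywhere in the 300 bases. On the ground, the median difference between the muscles was 0.40 (range 0.14 to 0.63) for these 16 and 0.32 (range 0.085 to 0.59) for the other 21. After flight it was 0.41 and 0.31, and the ranges overlapped almost wholly. A match is a run of letters and not a measured binding site. CCAAT was in 33.3% of the 45 promoters and 37.4% of all, the gamma-activated sequence TTCNNNGAA in 6.67% and 8.3%, and the interferon-stimulated element (TTTC, 2 bases of any kind, TTTC) in 11.1% and 3.44%. The 3 promoters with the gamma-activated sequence were those of the immune subunit Psmb8, of Psmd2 and of Psmg1. The 5 with the interferon-stimulated element were those of Psmb3, Psmd4, Psmd9, Psme1 and Psmg4. All these motifs were searched on both strands.

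No tested proteasome gene passed the test for flight in either muscle when all libraries were used, and few of all tested genes did. In gastrocnemius 0 of 44 passed the call of limma, an adjusted p under 0.05 with over 1.5-fold, beside 0.229% of all tested genes, and 0 were at an adjusted p under 0.05 without the fold minimum. Without flight mouse M11 the count was 1, Psmb4. In that fit 133 of the 10481 tested genes were called, and 182 were at an adjusted p under 0.05. At an unadjusted p under 0.05, 5 were lower after flight (background 6.55%) and 0 higher (background 8.52%). Of the 44 differences, 29 were negative, as were 46.4% over all tested genes, and their median was -0.060 against 0.019 for all tested genes. With 1 library left out that median ran from -0.11 (without flight mouse M11) to -0.016 (without M12), and the number at an unadjusted p under 0.05 from 7 (without M11) to 0 (without ground mouse M03). The 3 flight values were wholly below the 3 ground values for 5 genes (background 8.55%) and wholly above for 2 (background 12.5%).

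Psmb4 had the smallest p in both muscles. In gastrocnemius it had 125, 150.3 and 134 TPM in ground mice and 122, 89.8 and 81.9 TPM in flight mice M11, M12 and M20. All 3 flight values were below the ground values, that of M11 by little, and the log2 difference was -0.49 (0.711-fold, SE 0.152, adjusted p = 0.221, limma). Without M11 it was -0.66 and called (adjusted p = 0.0377, limma), as were 133 of the 10481 tested genes. Without any other library it was not called, with adjusted p-values up to 0.534. In quadriceps Psmb4 had 224.8, 204 and 189 TPM on the ground and 165, 136 and 164 TPM after flight, also without overlap (log2 difference -0.41, 0.753-fold, SE 0.103, adjusted p = 0.323, limma).

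Psma3, an alpha subunit, was next in gastrocnemius, with 87.9, 91.5 and 90.6 TPM on the ground and 86.9, 60.03 and 68.8 TPM after flight (log2 difference -0.34, SE 0.131, adjusted p = 0.294). In quadriceps it had 117, 134 and 106 TPM and 98.7, 83.5 and 105.0 TPM (log2 difference -0.31, SE 0.121, adjusted p = 0.437, limma). In neither muscle did the ranges of Psma3 overlap, though the nearest values, 87.9 and 86.9 TPM in gastrocnemius and 106 and 105.0 TPM in quadriceps, lay close to each other, and 20.3% of its 31-base words recur elsewhere, chiefly in Gm13835, which was listed at 39.8 to 69.6 TPM. Psmd6 had 82.7, 93.2 and 90.8 TPM on the ground and 83.7, 71.1 and 68.7 TPM after flight in gastrocnemius, which overlap by the value of M11 (log2 difference -0.25, adjusted p = 0.294).

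The other genes at an unadjusted p under 0.05 in gastrocnemius were Psmd5, a base chaperone, and Psmb1, a beta subunit without catalytic activity. Psmd5 had 9.73, 8.22 and 8.34 TPM on the ground and 7.78, 6.83 and 6.10 TPM after flight, without overlap (log2 difference -0.31, adjusted p = 0.305, limma). Psmb1 had 44.5, 44.6 and 44.02 TPM and 42.0, 37.3 and 34.4 TPM, also without overlap (log2 difference -0.23, adjusted p = 0.315, limma). Flight mouse M11 was the flight mouse nearest the ground values for Psmb4, Psma3, Psmd6, Psmd5 and Psmb1. By role, the median was -0.15 for the constitutive beta ring, -0.095 for the alpha ring, -0.055 for the non-ATPase base and lid and -0.24 for the assembly factors, while the ATPases had 0.066 with 4 of 6 positive.

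In quadriceps 0 of 44 were called and 0 were at an adjusted p under 0.05 with limma (background 0.0286%). At an unadjusted p under 0.05, 4 were lower after flight (background 5.18%) and 0 higher (background 5.66%). Of the 44 differences 32 were negative, as were 47.9% over all tested genes, and the median was -0.075 against 0.012. With 1 library left out that median ran from -0.099 (without flight mouse M20) to -0.036 (without M12), and the number at an unadjusted p under 0.05 from 6 (without M08) to 1 (without M12). The flight values lay wholly below the ground values for 9 genes (background 8.12%) and wholly above for 0 (background 9.24%). These 9 were Psmb4, Psma3, Psmg1, Psme2, Psmb7, Psmb1, Psma5, Psma7 and Psmd9. All 7 constitutive beta genes had a negative difference in this muscle, from -0.41 to -0.020, with a median of -0.16. Without the quadriceps library of M08 there were 0 calls, and 35 of the 44 differences were negative with a median of -0.085.

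Psmg1 had 9.50, 8.90 and 11.2 TPM in ground and 6.32, 5.81 and 8.23 TPM in flight quadriceps, without overlap (log2 difference -0.49, 0.714-fold, SE 0.160, adjusted p = 0.378, limma). Psme2, an activator gene, had 38.9, 34.4 and 32.4 TPM and 30.6, 24.1 and 30.4 TPM, also without overlap (log2 difference -0.31, adjusted p = 0.447, limma). Of the 31-base words of Psme2, 33.5% recur in other genes, chiefly Psme2b. Psmb7 was next (log2 difference -0.15, adjusted p = 0.481). The adipocyte markers moved in the same comparison, with 6 of 6 at an unadjusted p under 0.05 and lower after flight (background 5.18%), a summed level of 324 to 600.2 TPM on the ground and 205 to 285 TPM after flight, and 0 at an adjusted p under 0.05. Their part in the differences of the proteasome genes was not tested.

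**Figure D4:**
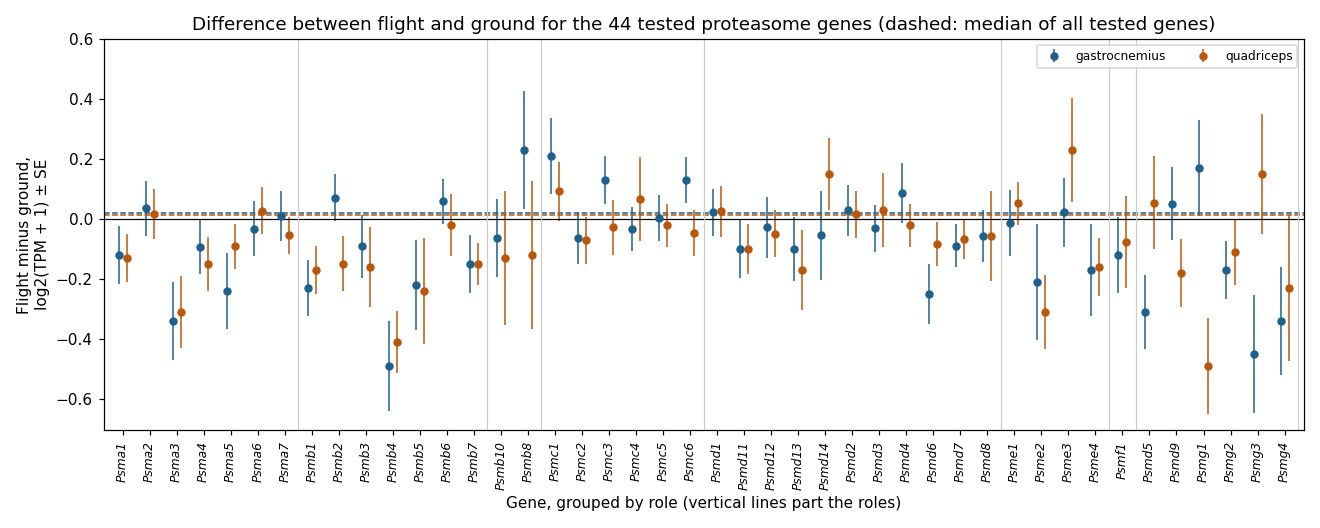
Difference between flight and ground, in log2(TPM + 1) with its SE, for the 44 tested proteasome genes in gastrocnemius and in quadriceps, ordered by role. The medians of all tested genes are dashed (0.019 and 0.012), 29 and 32 of the 44 points lie below 0, and 0 reached an adjusted p under 0.05.

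The flight differences of the muscles were compared by an interaction term, fitted in all 12 libraries with a block for each mouse. At an adjusted p under 0.05 there were 0 proteasome genes (background 0%), and Psmg1 alone was at an unadjusted p under 0.05 (background 5.09%), with an interaction of -0.66 (SE 0.260, adjusted p = 0.957, limma). Its flight difference was 0.17 in gastrocnemius and -0.49 in quadriceps. Next were Psmd5 (interaction 0.36), Psmb2 (-0.23), Psmg3 (0.60) and Psmd9 (-0.23), each with an adjusted p over 0.95. Psmb2, a beta subunit without catalytic activity, had 48.6, 47.3 and 45.0 TPM in ground and 51.8, 47.4 and 49.0 TPM in flight gastrocnemius, and 56.8, 61.9 and 63.5 TPM in ground and 55.1, 49.5 and 58.9 TPM in flight quadriceps. The flight and ground values of Psmb2 overlapped in both muscles.

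Psmg3, a core assembly factor, had 3.84, 3.23 and 3.44 TPM in ground and 1.98, 3.27 and 1.81 TPM in flight gastrocnemius, and 4.12, 5.31 and 3.44 TPM in ground and 5.29, 3.82 and 5.44 TPM in flight quadriceps. Psmd9, a base chaperone, had 8.67, 9.68 and 10.6 TPM in ground and 8.96, 9.86 and 11.3 TPM in flight gastrocnemius, and 12.2, 12.4 and 11.9 TPM in ground and 9.43, 10.8 and 11.7 TPM in flight quadriceps. Psmd5 in quadriceps had 9.28, 9.14 and 10.9 TPM on the ground and 12.4, 8.61 and 9.80 TPM after flight. In quadriceps Psmd9 had flight values wholly below the ground values, and Psmg3 and Psmd5 did not. In gastrocnemius this held for Psmd5 and not for Psmg3 or Psmd9. Psmg3 passed the filter only through quadriceps libraries.

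**Figure D5:**
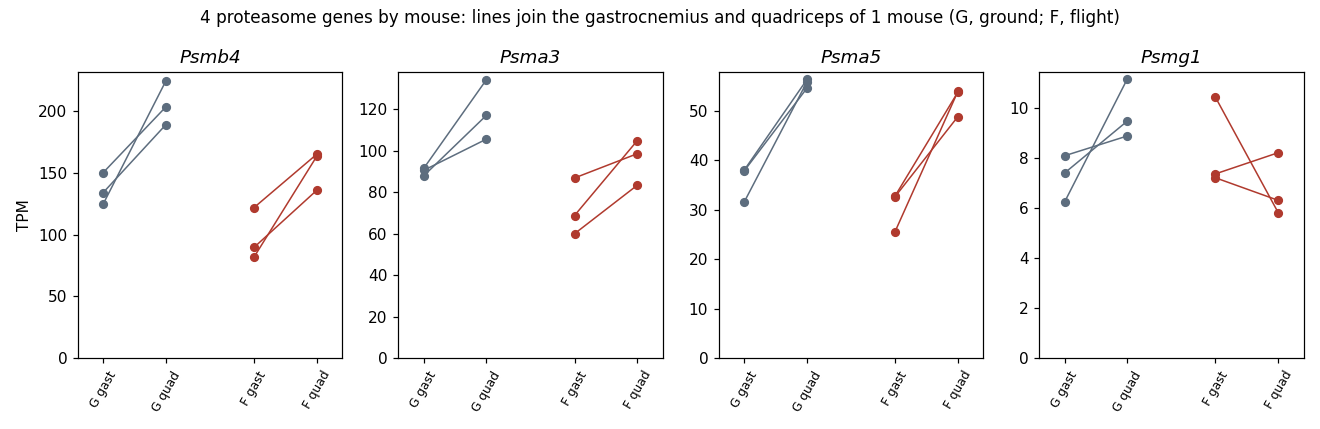
TPM of Psmb4, Psma3, Psma5 and Psmg1 in the gastrocnemius and quadriceps of each mouse, with a line joining the muscles of 1 mouse and axes from 0. Psmb4, Psma3 and Psma5 are higher in quadriceps in all 6 mice, Psmb4 and Psma3 are lower after flight in both muscles without overlap, and Psmg1 is higher in quadriceps in the 3 ground mice and in 1 flight mouse.

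The tables of skipped and mutually exclusive exons held 3 events in proteasome genes, all of them skipped exons in activator genes. Their samples are listed without names, so each value stands for an unnamed mouse. Exon inclusion was read as percent spliced in (PSI), with reads divided by the number of positions that can yield them. Events were tested with limma on the log2 of inclusion over skipping reads and called at an adjusted p under 0.05 with a PSI change of more than 5 points. In gastrocnemius 0.378% of 2118 events were called and in quadriceps 0% of 2062, and 0 of the 3 events were.

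The same exon of 75 bases was listed for both muscles in Psme3, which encodes the nuclear activator of the core (chr11:101317021-101317095 on GRCm38, plus strand). In GENCODE vM21 it is exon 2 of 7 in Psme3-204, 1 of 3 coding transcripts of the gene, and lies wholly in the coding sequence without a shift of the frame.
Psme3 skipped exon: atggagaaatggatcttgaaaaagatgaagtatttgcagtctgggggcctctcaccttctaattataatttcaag
In gastrocnemius its PSI was 3.23%, 1.75% and 12.8% on the ground and 2.56%, 2.13% and 0% after flight, from 16, 29 and 22 junction reads and from 20, 24 and 25. The mean was 5.93% ± 6.01 on the ground and 1.56% ± 1.37 after flight, and the ranges overlapped (log2 ratio difference -1.35, adjusted p = 0.661, limma). In quadriceps the PSI was 11.1%, 0% and 3.13% on the ground and 0%, 6.38% and 3.85% after flight, which overlapped as well (log2 ratio difference -0.21, adjusted p = 0.974, limma). The exon was thus left out of most Psme3 transcripts in both muscles. Each sample held only 15 to 36 junction reads, and the smallest difference detectable at that depth was not tested.

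The other event was an exon of 65 bases in Psme4, listed for quadriceps only (chr11:30815228-30815292 on GRCm38, plus strand). It was exon 13 of 47 in Psme4-201 and wholly coding, and its length is not a multiple of a codon.
Psme4 skipped exon: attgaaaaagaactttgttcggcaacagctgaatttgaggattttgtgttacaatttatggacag
Its PSI was 96.8%, 100% and 100% on the ground and 94.2%, 90.7% and 100% after flight. The skipping reads were 2, 0 and 0 beside 119, 204 and 117 inclusion reads on the ground, and 5, 5 and 0 beside 161, 97 and 79 after flight. The means were 98.9% ± 1.88 and 94.9% ± 4.72 with overlapping ranges (log2 ratio difference -1.93, adjusted p = 0.678, limma). The exon was therefore kept in nearly all Psme4 transcripts, and the difference rests on 12 skipping reads in all.

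The genes that feed and regulate the proteasome were given by a list of 39 genes of the table, of which 38 were tested. The list holds ubiquitin and its activating enzymes, factors bound to the proteasome, assembly factors without the Psm prefix, the transcription factors of subunit genes, the unfoldase p97 with its cofactors and the ubiquitin ligases of atrophy. In the ground mice 32 of 38 were positive for quadriceps minus gastrocnemius (67.7% of all tested genes), with a median of 0.19, and 8 were higher at an adjusted p under 0.05, with 0 lower (background 8.84%). These were Rps27a, which encodes ubiquitin fused to a ribosomal protein (log2 difference 0.77, adjusted p = 0.00927), Vcp, the p97 unfoldase (0.39, adjusted p = 0.0130), the proteasome-bound Txnl1 (0.36, adjusted p = 0.0188), Usp14 (0.45, adjusted p = 0.0416) and Ecpas (0.42, adjusted p = 0.0464), the lid subunit Sem1 (0.47, adjusted p = 0.0396), the muscle ligase Fbxo32 (0.48, adjusted p = 0.0458) and the core assembly factor Pomp (0.36, adjusted p = 0.0484). In the flight mice 34 of 38 were positive (66.7% of all tested genes) with a median of 0.23, and 4 passed, Ecpas, Zfand5, Sem1 and Vcp, all higher in quadriceps (background 2.45%, 2.02% higher). These calls depended on all mice as well. Without M02, M03 or M08 in turn, 0 of the 38 passed on the ground, beside 2, 0 and 10 of the 10481 tested genes. Without M11, M12 or M20 in turn, 0 passed after flight, beside 47, 5 and 4 of all tested genes. After median-ratio rescaling 2 passed on the ground (background 2.37%), with 23 of 38 positive, beside 50.3% of all tested genes. In the flight mice 0 then passed (background 0.62%), with 29 positive, beside 49.6% of all tested genes. With mouse as a block, which fits the pairing, 4 and 2 passed (background 4.13% and 1.94%).

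In the flight comparison of gastrocnemius 1 of the 38 passed, Rps27a, with 133 ± 4.47 TPM on the ground and 79.8 ± 9.45 TPM after flight (log2 difference -0.74, adjusted p = 0.0446, limma; background 0.229%). That call held without flight mouse M11 (adjusted p = 0.0175) and was lost without M02 (0.207), M03 (0.234), M08 (0.112), M12 (0.114) or M20 (0.234), without the filter (0.211) and without the trended prior (0.0941), while the difference stayed between -0.82 and -0.65. In quadriceps 0 passed, and among the smallest p-values were those of Trim63, a ubiquitin ligase of muscle atrophy (log2 difference 0.45, adjusted p = 0.347), and Rps27a (-0.59, adjusted p = 0.397). Trim63 was at 126 ± 6.23 TPM in ground and 156 ± 13.4 TPM in flight gastrocnemius (log2 difference 0.31, adjusted p = 0.210), and at 153 ± 13.3 and 211 ± 33.2 TPM in quadriceps. Nfe2l1, which encodes the transcription factor named above, had 211 ± 6.998 and 202 ± 12.2 TPM in ground and flight gastrocnemius and 232 ± 26.9 and 242 ± 13.1 TPM in quadriceps, and none of the 4 comparisons of these groups passed (adjusted p from 0.117 to 0.830, limma).

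The genes known to be induced together with the immunoproteasome, those of interferon response and antigen presentation, numbered 15, of which 10 were tested. At an adjusted p under 0.05 there were 0 in each of the 5 comparisons, with limma. The background was 0.229% for flight in gastrocnemius and 0.0286% in quadriceps. It was 8.84% between the muscles on the ground, 2.45% after flight and 0% for the interaction. In the same order, 1, 0, 1, 1 and 1 genes were at an unadjusted p under 0.05, beside 1580, 1136, 2904, 2575 and 534 of the 10481 tested genes. The summed level of the interferon and antigen presentation genes ranged from 177 to 282 TPM over the 12 libraries. The endothelial markers, 7 of 7 tested, and the erythroid markers, 5 of 5, had 0 at an adjusted p under 0.05 in all 5 comparisons (same backgrounds), and so had the 6 tested macrophage markers. After flight, 6 of 9 muscle fiber markers were positive for quadriceps minus gastrocnemius and 3 negative, with 2 higher and 0 lower at an adjusted p under 0.05 (background 2.45%). At an unadjusted p under 0.05, 5 were higher and 2 lower, beside 2096 and 479 of the 10481 tested genes. The adipocyte markers had 1 of 6 past the test on the ground (background 8.84%) and 0 after flight.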

How the data were processed

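Poly(A) RNA of gastrocnemius and quadriceps of 3 ground and 3 flight mice was sequenced as stranded, single-end libraries, 1 per muscle and mouse. The authors quantified reads with kallisto (0.46.0) and deposited 1 table of TPM values per gene. TPM keeps no read depth, so the precision of each value is known only from the spread between mice. From alignments with STAR (2.7.1a) to mm10, the authors deposited rMATS tables of skipped and mutually exclusive exons, with junction read counts as lists per group. These tables also hold the authors' own p-values, false discovery rates and inclusion differences, which were not used.

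From the TPM values, log2(TPM + 1) was fitted with limma (3.58.1, R 4.3.3; trended prior, Benjamini-Hochberg adjustment) in the 6 libraries of each comparison, for the 10481 genes above 5 TPM in at least 1 of 12 libraries, and called at an adjusted p under 0.05 and over 1.5-fold. These fits had no block for the mouse. The interaction was fitted over 12 libraries with mouse as a block. Scripts were tested on simulated data. Genes given in detail were the 5 of smallest p in each comparison, the called genes and Psmb5 to Psmb10. The members and gene lists were chosen with earlier results of these data known. Groups came from the sample labels. Replicate numbers of muscles mark the same mouse, so that pairing comes from the animals. The correlations of the deviations of the muscles of a mouse were 0.0943, 0.0142 and 0.163 on the ground and 0.333, 0.179 and -0.119 after flight. P-values measure the spread between mice of 1 housing group. Shared 31-base words were counted on GENCODE vM21 transcripts. Alternatives were other pseudocounts, filters, scalings, sample sets and blocks, and each mouse left out. Protein sequences were not used here. The values of 1 gene of the pathway list are not reported here.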

Additional observations from a re-analysis of the deposited data

How the results depend on the processing

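The direction of the muscle difference held under the alternatives, and the number of genes past the threshold did not. In ground mice the count at an adjusted p under 0.05 (23) was 4 after median-ratio rescaling and 9 without the filter. It was 4 without the trended prior, 10 with the replicate block that fits the pairing by mouse, and 0 with a mouse left out. The count over all tested genes (927) fell as well, to 248 after rescaling and 218 of 25742 without the filter. It was 242 without the trend, 433 with the block and 0 to 10 with a mouse left out. The called genes there (2) were 0 after rescaling, 0 without the filter and 1 without the trend. They were 0 with a pseudocount of 5 and 0 with a mouse left out. Over all tested genes the calls (232) were 109 after rescaling, 57 without the filter and 139 without the trend. They were 149 with a pseudocount of 5 and 0 to 10 with a mouse left out. In flight mice the count at an adjusted p under 0.05 (3) was 23 in a fit of all 12 libraries, 34 in that fit with mouse as a replicate block (added after the data were seen), 5 with the filter on the mean, 0 after rescaling, without the filter or without the trend, 1 with the replicate block and 0 to 0 with a mouse left out. The called genes there (1) were 3 in all 12 libraries and 0 with a mouse left out. They were also 0 after rescaling, without the filter and without the trend. Over all tested genes the calls (174) were 320 in all 12 libraries, 56 after rescaling, 10 without the filter and 59 without the trend. With a mouse left out they were 4 to 47. The fit of all 12 libraries with mouse as a block was added after the data were seen. It gives a muscle difference common to ground and flight mice, with 34 genes at an adjusted p under 0.05 and 2 called. Over all tested genes these were 3194 and 352. Rescaling took the medians to 0.24 and 0.25. Each left-out mouse lowers the number of samples. The cause of the other changes was not tested.

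In flight gastrocnemius both counts were 0 to 1 with a library left out. Over all tested genes 1 to 133 were then called, most of them without M11. The flight comparisons share replicate numbers between different mice, and a replicate block on these numbers gave 0 calls. The splicing ratio of Psme3 in quadriceps was 0.0084 with weights and -1.33 to 0.85 with a sample left out. Directions turned only for small differences. That of Psmb8 between the muscles after flight was -0.0021 with a pseudocount of 0.1, -0.096 after rescaling and -0.15 to 0.14 with a mouse left out, and that of Psmb10 was -0.061 after rescaling. With a library left out, the flight difference was -0.17 to 0.046 for Psmb10 in gastrocnemius, -0.11 to 0.080 for Psmb6 and -0.27 to 0.15 for Psmb8 in quadriceps, and the muscle difference on the ground was -0.12 to 0.48 for Psmb10. The interaction was -0.24 to 0.18 for Psmb5, -0.22 to 0.034 for Psmb6, -0.093 to 0.042 for Psmb7 and -0.43 to 0.17 for Psmb10. Low genes are limited by their spread, and TPM gives no depth.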
